A study of Homo sapiens with 8 samples.

Results

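The solute carriers described here are the membrane proteins that move amino acids, sugars, ions, vitamins and metals across the plasma membrane and the membranes of organelles. Their genes were chosen by biotype, by a gene symbol of the form SLC, number, A, number, and by a mean of at least 1 CPM, a gene's reads scaled to the library's total, over the 8 libraries, leaving out the mitochondrial SLC25A carriers, SLC2A1, SLC2A2, SLC30A8 and SLC6A18. The rule found 162 genes among the 16525 listed, in 45 families. They were sorted into 12 groups by substrate, mostly by family and for some members gene by gene, the last of them a remainder of 2 genes. The table held 225 protein-coding genes with such a symbol, of which 41 were SLC25A carriers, 4 were left out by name and 18 had a lower mean. Carriers with other symbol forms, such as the later SLC35 subfamilies and the organic anion SLCO genes, are outside the rule. The cells were EndoC-βH5, an established human beta-cell line, so all libraries came from 1 line. Control cells were left untreated, and cytokine cells were exposed to IL-1β, IFN-γ and TNFα together for 48 h, with 4 libraries in each condition. The labels do not say whether the libraries came from separate cultures, so p-values measure the spread between these libraries, which may be technical.

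Solute carriers act as uniporters, as symporters that use the sodium or proton gradient, or as exchangers that swap 1 substrate for another. In the beta cell they supply amino acids and nucleosides, set the chloride and calcium balance on which excitability depends, and load zinc and transmitters into vesicles. Some work with partners: SLC3A2 is the heavy chain of the SLC7 amino acid exchangers, and BSG and EMB escort monocarboxylate carriers to the membrane. Amino acid carriers such as SLC38A2 and SLC7A5 are known targets of ATF4, the transcription factor of the amino acid response, and genes that respond to IFN-γ often carry gamma-activated sites.

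Reads on genes ranged from 36577438 to 40117636 per library, and 1 read equalled 0.0196 to 0.0214 CPM. A count of 0 would allow up to 3 reads, or 0.0587 to 0.0641 CPM, and this limit covers counting error only; no member had 3 reads or fewer in any library. The column names carry no replicate number, so libraries are lettered A to D after the part of the name that 1 control and 1 cytokine column share. A and B have a common ending, as do C and D. Values of single libraries are given in this order, control before cytokine. All 8 beta-cell markers looked for were listed, with a summed level of 22870 to 35290 CPM in control and 28530 to 52270 CPM in cytokine libraries, most of it from CHGA. The sum hides single markers: the beta-cell transcription factors MAFA (log2 fold change -2.27), PDX1 (-0.78) and NKX2-2 (-0.52) were called lower. A gene was called where limma, run on log2(CPM + 0.1), gave a log2 fold change beyond 0.5 in size at an FDR under 0.05. NKX2-2 was called neither with TMM, a scaling that sets most genes level, nor in 6 of 8 fits that left out 1 library. INS (-0.17) was not called, nor were IAPP (0.93) and NKX6-1 (0.39), which were called higher with TMM. All 4 markers of other islet cells were also listed (463 to 2177 and 553 to 1996 CPM), mainly SST, and none was called, though GCG was lower in each lettered pair (-1.47). Also listed were 2 of 4 exocrine and duct markers (88.2 to 167.5 and 84.6 to 166.0 CPM, mainly KRT19, while CPA1 was called lower, -1.06) and 1 of 3 markers of other cells (0.0635 to 0.449 and 0.0427 to 0.844 CPM); the part of these in the results was not tested.

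After cytokine exposure 17 solute carriers were higher and 47 lower, and 98 were not called. The 64 called members made up 39.5% of the 162, where 27.0% of all genes tested were called. The share called higher was 10.5%, against 9.52% of all genes and 9.62% of those with a mean of at least 1 CPM. The share called lower was 29.01%, against 17.5% and 18.1%. The median log2 fold change was -0.22 over the members and -0.17 over all genes. The scaling bears on this split: with TMM the median of all genes moved up by 0.16, the medians were -0.06 and -0.01, and 24 members were higher and 31 lower. These were 14.8% and 19.1% of the members, where 13.1% of all genes were higher and 11.5% lower (13.5% and 11.9% of those with a mean of at least 1 CPM). Calls with TMM are those of limma unless edgeR is named. All 17 rises were also called with TMM, while 16 of the 47 falls were not; of these 16, edgeR with TMM called SLC4A3 and SLC30A3 lower. No member was called in opposite directions. Genes named here are the 14 largest rises and the 14 largest falls without overlap between conditions, the 2 members of highest mean CPM in each substrate group and those at the edge of the rule; any other member was named after its values were seen. In bulk RNA, fewer cells with a transcript and less transcript per cell cannot be told apart.

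The 4 cytokine libraries lay above the 4 control libraries without overlap for 21 members, 13.0% of them, where 10.8% of all genes did. They lay below without overlap for 57 members, 35.2%, where 21.9% of all genes did. The rises ranged from 0.54 to 5.26 on the log2 scale and the falls from 0.53 to 2.65; 10 rises and 18 falls exceeded 1, and 2 and 3 exceeded 2. Of members with a mean under 10 CPM, 5 rose and 17 fell of 55. From 10 to 100 CPM, 9 rose and 24 fell of 90, and above 100 CPM, 3 rose and 6 fell of 17. The shares of all genes in these ranges were not taken, so the counts describe the members alone. The lowest range also holds the members, named below, that entered through 1 condition. The summed level of all members was 7009 ± 460 CPM in control and 6942 ± 348 CPM in cytokine libraries (SD, n = 4 each). For 10 members the mean was below 1 CPM in 1 condition, so that they entered through the other. Of these, 2 were called higher (SLC24A2 and SLC22A11) and 6 lower (SLC34A3, SLC26A9, SLC23A1, SLC7A9, SLC5A2 and SLC45A3). SLC1A1 and SLC9A2 were not called. SLC24A2, SLC34A3 and SLC26A9 are among the changes beyond 2. As the rule favours a difference in these 10, their calls and lack of overlap are descriptions only. Among the remaining 152, 15 were higher (9.87%) and 41 lower (27.0%). The treatment effect did not differ at an FDR below 0.05 between the A and B and the C and D libraries for any member (limma interaction; 6 members had an unadjusted p below 0.05, and 5 of all genes passed the FDR).

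**Figure D1:**
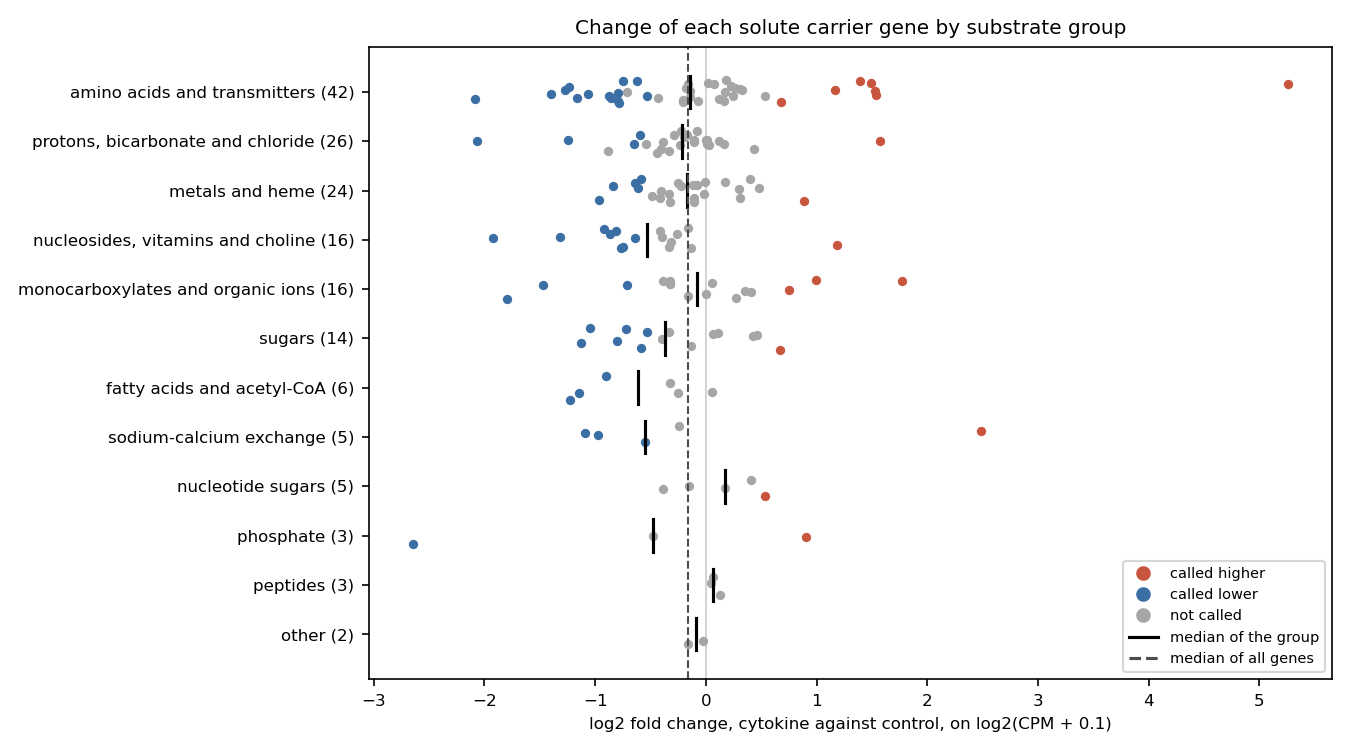
Log2 fold change of each solute carrier gene, cytokine against control on log2(CPM + 0.1), in rows by substrate group with the number of genes in brackets. Red points are called higher, blue lower and grey not called by limma; the black bar is the median of the group and the dashed line the median of all 16525 genes (-0.17), and SLC17A8 stands alone at 5.26.

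Promoters were read for 135 of the 162 members, 15 of the 17 called higher and 42 of the 47 called lower, from RefSeq on GRCh38.p14, from 250 bases before to 50 bases after the start. The gamma-activated site, searched as TTCNNNGAA, was found in none of the 15 and in 2 of the 42, and in 3.70% of members' promoters against 7.88% of all 27305. The interferon-stimulated response element, searched as GAAA, any 2 bases, GAAA, was found in 1 of the 15 and none of the 42 (0.741% of members, 3.65% of all). The amino acid response element of ATF4, TGATGNAA, was found in none of the 15 and 1 of the 42 (2.96% of members, 3.67% of all). Both strands were searched, and N stands for any base. No biotype or expression limit was set on the 27305 promoters, while members were chosen by both. The shares of members and of all promoters thus come from unlike sets. Only the first listed start of a gene was read, so other starts are not covered. A match is a description of letters, and the absence of a match speaks only of this window. Printed here, 5′ to 3′ from 250 bases before the start to the base before it, are the promoters of the largest rise and the largest fall, which held no match, and of the called members with a match to an interferon element; capitals mark the match.
SLC17A8 (chr12:100356824-100357073, plus strand): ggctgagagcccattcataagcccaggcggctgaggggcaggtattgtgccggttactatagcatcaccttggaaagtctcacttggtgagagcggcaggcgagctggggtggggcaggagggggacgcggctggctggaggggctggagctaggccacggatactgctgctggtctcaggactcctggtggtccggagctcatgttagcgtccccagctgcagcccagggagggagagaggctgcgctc
SLC34A3 (chr9:137230507-137230756, plus strand): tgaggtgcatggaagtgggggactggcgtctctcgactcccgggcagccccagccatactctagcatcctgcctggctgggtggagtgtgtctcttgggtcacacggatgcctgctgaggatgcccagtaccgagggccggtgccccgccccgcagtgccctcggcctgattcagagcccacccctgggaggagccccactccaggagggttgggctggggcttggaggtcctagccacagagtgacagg
SLC38A4 (chr12:46825998-46826247, minus strand): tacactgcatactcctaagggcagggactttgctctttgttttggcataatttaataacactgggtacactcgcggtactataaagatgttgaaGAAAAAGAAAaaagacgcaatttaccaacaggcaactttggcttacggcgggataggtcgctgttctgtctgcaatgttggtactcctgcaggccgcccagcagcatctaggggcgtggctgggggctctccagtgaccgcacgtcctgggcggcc
SLC27A3 (chr1:153775157-153775406, plus strand): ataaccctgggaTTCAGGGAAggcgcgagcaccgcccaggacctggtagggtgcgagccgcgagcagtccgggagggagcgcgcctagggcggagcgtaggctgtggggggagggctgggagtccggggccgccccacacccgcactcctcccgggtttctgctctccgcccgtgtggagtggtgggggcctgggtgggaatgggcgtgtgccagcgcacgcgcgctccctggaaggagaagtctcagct
SLC39A10 (chr2:195656708-195656957, plus strand): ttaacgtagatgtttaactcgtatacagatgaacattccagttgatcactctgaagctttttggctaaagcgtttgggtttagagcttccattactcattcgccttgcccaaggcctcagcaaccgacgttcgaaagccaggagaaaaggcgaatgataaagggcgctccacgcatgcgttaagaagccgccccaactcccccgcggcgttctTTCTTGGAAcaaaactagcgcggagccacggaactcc

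The match in SLC38A4, a neutral amino acid carrier, lay at -156 to -147 from the start, that in SLC27A3, a fatty acid carrier, at -238 to -230, and that in SLC39A10, a zinc importer, at -37 to -29. The starts used for these genes lie inside the genes as annotated in GENCODE 29, whose first bases are 46832408 (SLC38A4, minus strand), 153774354 (SLC27A3) and 195575977 (SLC39A10). SLC38A4 was called higher, and SLC27A3 and SLC39A10 were called lower.

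The largest rise was in SLC17A8 (chromosome 12, 100357079 to 100422059, plus strand in GENCODE 29 on GRCh38), which encodes VGLUT3, a carrier that loads glutamate into vesicles. Its level was 1.005, 1.59, 2.77 and 2.01 CPM in control and 66.3, 68.4, 81.6 and 65.6 CPM in cytokine libraries. Every cytokine library was far above every control library, a 38.4-fold difference on the log2(CPM + 0.1) scale (log2 fold change 5.26, SE 0.25, limma adjusted p = 9.85e-08). Per transcript length it stood at 1.71 ± 0.866 TPM in control and 68.8 ± 12.7 TPM in cytokine libraries (SD, n = 4 each), and among the 162 members it ranked 144th in control cells. SLC17A6, which encodes VGLUT2, was not called (log2 fold change 0.23, SE 0.27, limma adjusted p = 0.558). The other vesicular carriers in the group carry other transmitters. SLC18A3, the vesicular acetylcholine carrier, stood at 54.6, 54.1, 59.7 and 42.3 CPM in control and 25.2, 25.8, 23.8 and 18.9 CPM in cytokine libraries, with no overlap (log2 fold change -1.16, SE 0.15, limma adjusted p = 1.86e-04). SLC32A1, the vesicular carrier of GABA and glycine, had 138 ± 19.4 CPM in control and 95.2 ± 6.46 CPM in cytokine libraries (SD, n = 4 each). Its fall (log2 fold change -0.53, SE 0.13, limma adjusted p = 0.0105) was not called with TMM (-0.37), nor without control library A, control library C or cytokine library D (log2 fold changes -0.49 to -0.48, limma adjusted p = 0.0232 to 0.0331). SLC18A2, the vesicular monoamine carrier, had a log2 fold change of 0.08 and was not called.

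Among the 42 carriers of amino acids and transmitters, 7 rose and 14 fell, and 21 were not called. With TMM 8 rose and 10 fell, and the group's median turned from -0.14 to 0.01. The counts of this and the other groups are to be read against all genes. Of those 9.52% were called higher and 17.5% lower (13.1% and 11.5% with TMM). Carriers that take up neutral amino acids moved in both directions. SLC38A2 (SNAT2), the sodium-coupled carrier known for its response to amino acid shortage, stood at 17.7, 17.9, 30.9 and 20.8 CPM in control and 52.8, 55.6, 80.2 and 62.6 CPM in cytokine libraries. Library C was highest in each condition, and the conditions did not overlap (log2 fold change 1.54, SE 0.20, limma adjusted p = 2.03e-04). SLC7A5 (LAT1), the exchanger of large neutral amino acids, stood at 10.3, 10.3, 17.4 and 13.8 CPM in control and 31.5, 30.1, 48.4 and 39.5 CPM in cytokine libraries. Libraries C and D were above A and B in each condition, and all cytokine libraries were above all controls (log2 fold change 1.53, SE 0.21, limma adjusted p = 3.05e-04). SLC1A5 (ASCT2), a glutamine exchanger, stood at 1.92, 2.62, 5.18 and 3.97 CPM in control and 6.22, 5.42, 11.9 and 7.09 CPM in cytokine libraries. The lowest cytokine library, B, lay just above the highest control library, C (log2 fold change 1.17, SE 0.33, limma adjusted p = 0.0194), and the call was lost without control library B (log2 fold change 1.08, limma adjusted p = 0.0531).

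SLC6A6, the sodium-coupled carrier of taurine, had the next highest control level per length among the members that rose, after SLC22A17. It stood at 143, 147, 120.1 and 137 CPM in control and 369, 367, 341 and 356 CPM in cytokine libraries. The libraries were tightly grouped in each condition, 2.63-fold apart (log2 fold change 1.39, SE 0.11, limma adjusted p = 6.01e-06). SLC7A14, a lysosomal member of the cationic amino acid carrier family, stood at 38.3, 42.1, 65.6 and 52.6 CPM in control and 131, 132, 145 and 140.3 CPM in cytokine libraries. Its control libraries varied more than its cytokine libraries, and none overlapped (log2 fold change 1.496, SE 0.16, limma adjusted p = 6.09e-05). The seventh rise of the group, SLC38A4, had 6.16 ± 0.934 CPM in control and 9.95 ± 1.92 CPM in cytokine libraries (SD, n = 4 each, log2 fold change 0.68, SE 0.19, limma adjusted p = 0.0181). The call was lost without control library D or cytokine library B (log2 fold change 0.57 in each, limma adjusted p = 0.0535 to 0.0584).

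The falls included the group's most abundant member. SLC7A8 (LAT2), another exchanger of large neutral amino acids, stood at 925, 812, 749.5 and 611 CPM in control and 505, 513, 432 and 351 CPM in cytokine libraries. The order of the libraries was nearly alike in both conditions, with D lowest, and the conditions did not overlap (log2 fold change -0.78, SE 0.17, limma adjusted p = 0.00646). SLC6A19 (B0AT1, chromosome 5, 1201595 to 1225117, plus strand), a sodium-coupled neutral amino acid carrier best known from kidney and intestine, stood at 8.25, 6.39, 6.81 and 5.43 CPM in control and 1.36, 1.28, 1.79 and 1.59 CPM in cytokine libraries. Its control level was 4.24 times its cytokine level on the fitted scale (log2 fold change -2.08, SE 0.20, limma adjusted p = 2.35e-05). SLC38A3 (SNAT3), a glutamine carrier, stood at 26.1, 26.8, 17.2 and 13.6 CPM in control and 9.33, 11.8, 6.44 and 7.23 CPM in cytokine libraries. The control libraries A and B were about level and above C and D, and the highest cytokine library was below the lowest control (log2 fold change -1.24, SE 0.25, limma adjusted p = 0.00419).

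At lower levels, SLC38A8 (SNAT8) had 4.46 ± 0.737 CPM in control and 1.65 ± 0.404 CPM in cytokine libraries (SD, n = 4 each, log2 fold change -1.395, SE 0.22, limma adjusted p = 8.82e-04). SLC7A9, the light chain of the cystine carrier, had 1.63 ± 0.297 CPM in control and 0.625 ± 0.1904 CPM in cytokine libraries (SD, n = 4 each, log2 fold change -1.27, SE 0.26, limma adjusted p = 0.00437). These transcripts did not overlap between conditions. As SLC7A9 entered the rule through the control libraries, its call and lack of overlap are descriptions only. Of the other falls, SLC43A2 (LAT4) had 178 ± 23.8 CPM in control and 106 ± 3.77 CPM in cytokine libraries (SD, n = 4 each, log2 fold change -0.75, SE 0.12, limma adjusted p = 9.26e-04). SLC6A9, the glycine carrier GlyT1, had 17.6 ± 3.01 CPM in control and 8.5 ± 2.43 CPM in cytokine libraries (SD, n = 4 each, log2 fold change -1.07, SE 0.22, limma adjusted p = 0.00402). SLC43A3 and SLC7A4 kept their calls with TMM, while the glutamate carrier SLC1A2, SLC38A11 and SLC16A10 did not, nor did they keep them without single libraries. The call of SLC1A2 was lost without control library A, control library B, control library D, cytokine library A, cytokine library B or cytokine library C (log2 fold changes -0.98 to -0.67, limma adjusted p = 0.0513 to 0.103). That of SLC38A11 was lost without control library B, control library D, cytokine library A or cytokine library C (log2 fold changes -0.75 to -0.63, limma adjusted p = 0.0556 to 0.0697), and that of SLC16A10 without control library C, control library D, cytokine library A, cytokine library B or cytokine library D (log2 fold changes -0.63 to -0.47, limma adjusted p = 0.0543 to 0.076). SLC43A3 shares 29.9% of its exon bases with another gene on the same strand, so its reads are uncertain. SLC3A2, the heavy chain that SLC7A5 and SLC7A8 need to reach the membrane, stood at 106, 103, 172 and 118 CPM in control and 148, 144, 284 and 158 CPM in cytokine libraries. Each cytokine library was above the control library of the same letter, but control C lay above 3 of the 4 cytokine libraries, and the difference was not called (log2 fold change 0.53, SE 0.23, limma adjusted p = 0.109). It was called without control library C (log2 fold change 0.70, limma adjusted p = 0.0395), with TMM (0.69) and with the shared letter as a replicate block.

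**Figure D2:**
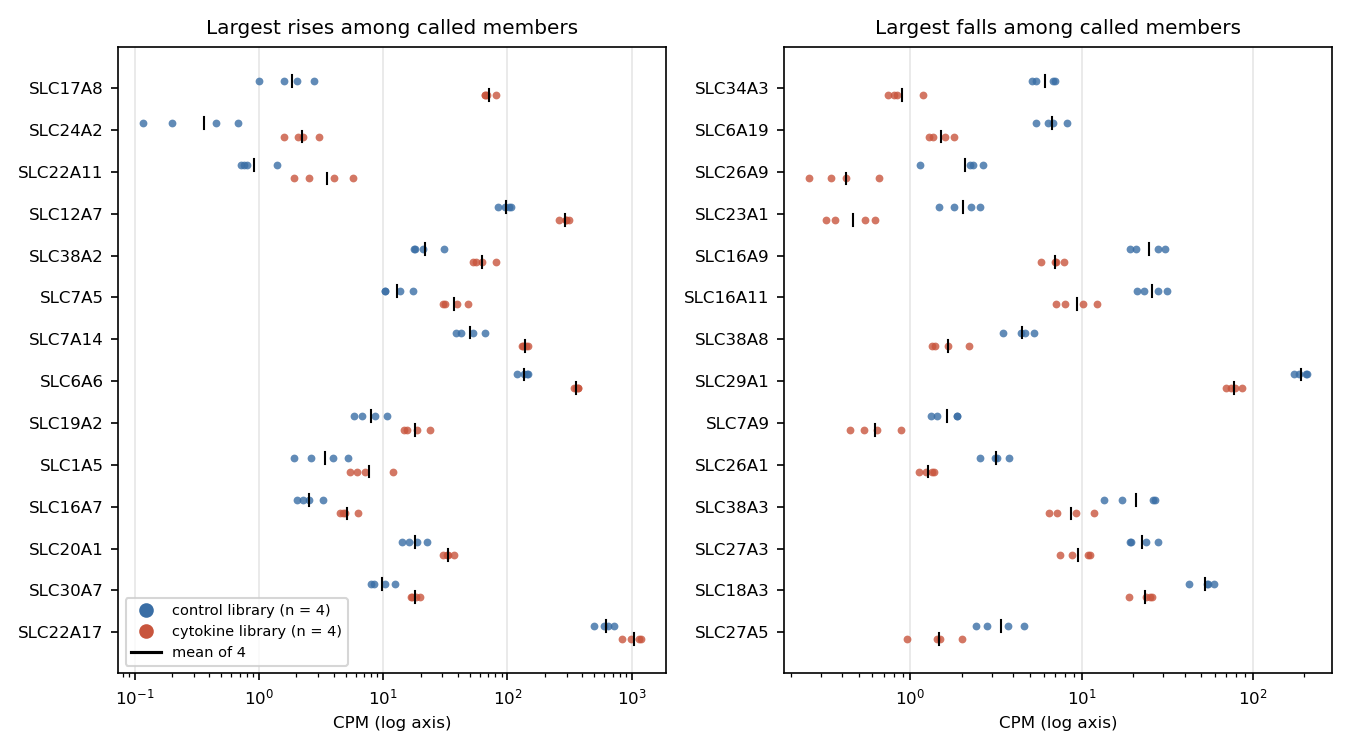
CPM of the 14 largest rises (left) and the 14 largest falls (right) among called members whose libraries do not overlap, on log axes. Each blue point is a control and each red point a cytokine library (n = 4 each), and black ticks are means; SLC17A8 goes from a mean of 1.84 to 70.5 CPM and SLC34A3 from 6.10 to 0.894 CPM.

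Of the 16 carriers of monocarboxylates and organic ions, 3 rose and 3 fell; with TMM 5 rose and 2 fell, and the median turned from -0.08 to 0.07. SLC22A17, the receptor of the iron-binding protein lipocalin-2, was the most abundant of all 162 members per length, at 545 ± 45.9 TPM in control and 995 ± 62.2 TPM in cytokine libraries (SD, n = 4 each). It stood at 723, 648, 601 and 493 CPM in control and 1189, 1144, 994 and 828 CPM in cytokine libraries. In each condition library D was lowest and A highest, and cytokine library D was above control library A (log2 fold change 0.75, SE 0.17, limma adjusted p = 0.00736). SLC22A11 (OAT4), a carrier of organic anions, stood at 1.39, 0.804, 0.756 and 0.723 CPM in control and 4.04, 5.75, 1.91 and 2.55 CPM in cytokine libraries. Control A stood above the other 3 control libraries, and cytokine A and B were above C and D (log2 fold change 1.77, SE 0.35, limma adjusted p = 0.0031). As SLC22A11 entered the rule through the cytokine libraries, its rise is a description only. SLC16A7 (MCT2), a high-affinity pyruvate and lactate carrier, had 2.52 ± 0.535 CPM in control and 5.1 ± 0.8098 CPM in cytokine libraries (SD, n = 4 each, log2 fold change 0.997, SE 0.20, limma adjusted p = 0.00396). SLC16A1 (MCT1) and SLC16A3 (MCT4), the other monocarboxylate carriers of wide use, had log2 fold changes of -0.32 and 0.05 and were not called.

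SLC16A9 (MCT9), a member of the monocarboxylate family, stood at 20.7, 19.1, 30.7 and 28.1 CPM in control and 5.79, 7.07, 7.01 and 7.94 CPM in cytokine libraries. All control libraries were well above all cytokine libraries (log2 fold change -1.79, SE 0.18, limma adjusted p = 3.83e-05). SLC16A11 (MCT11), known from type 2 diabetes genetics, stood at 31.5, 27.9, 23.2 and 20.96 CPM in control and 10.2, 12.3, 8.05 and 7.05 CPM in cytokine libraries, again with no overlap (log2 fold change -1.47, SE 0.20, limma adjusted p = 2.90e-04). SLC16A12 was called lower (log2 fold change -0.71) but not with TMM (-0.56), nor without control library C, control library D, cytokine library A or cytokine library B (log2 fold changes -0.63 to -0.60, limma adjusted p = 0.0741 to 0.0877).

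Of the 16 carriers of nucleosides, vitamins and choline 8 fell and 1 rose (6 and 1 with TMM), and the median log2 fold change was -0.53 (-0.37 with TMM), where that of all genes was -0.17 (-0.01). SLC29A1 (ENT1), the equilibrative carrier that takes up adenosine, stood at 204, 208, 185 and 173 CPM in control and 78.7, 86.3, 69.98 and 74.2 CPM in cytokine libraries. Control and cytokine libraries were 2.49-fold apart with a small spread (log2 fold change -1.32, SE 0.12, limma adjusted p = 1.22e-05). SLC29A4 (PMAT), which carries monoamines and adenosine, was among the most abundant members at 647, 582, 492 and 407 CPM in control and 352, 342, 244 and 234 CPM in cytokine libraries. Libraries A and B were highest in each condition, and no cytokine library reached a control library (log2 fold change -0.86, SE 0.19, limma adjusted p = 0.00617). The lysosomal SLC29A3 (log2 fold change -0.76) was also lower, while SLC29A2 (-0.33) was not called, so that 3 of the 4 SLC29 genes fell in both scalings; SLC29A3 shares 13.3% of its exon bases with another gene.

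The vitamin carriers of the SLC19 family differed in direction. SLC19A2, the high-affinity thiamine carrier whose loss causes a syndrome with diabetes, stood at 5.82, 6.77, 10.8 and 8.62 CPM in control and 15.5, 14.7, 23.8 and 18.8 CPM in cytokine libraries, the only rise of the group (log2 fold change 1.19, SE 0.22, limma adjusted p = 0.00221). SLC19A1, the reduced folate carrier of the same family, had 4.096 ± 1.53 CPM in control and 2.203 ± 0.478 CPM in cytokine libraries (SD, n = 4 each). Its fall (log2 fold change -0.81, SE 0.28, limma adjusted p = 0.0495) was not called with TMM (-0.67), nor without control library C, control library D, cytokine library A, cytokine library B or cytokine library D (log2 fold changes -0.87 to -0.65, limma adjusted p = 0.0696 to 0.135). SLC23A1 (SVCT1), a sodium-coupled vitamin C carrier, stood at 2.25, 2.56, 1.47 and 1.799 CPM in control and 0.362, 0.619, 0.322 and 0.542 CPM in cytokine libraries. The control level was 3.79 times the cytokine level on the fitted scale, without overlap (log2 fold change -1.92, SE 0.28, limma adjusted p = 4.76e-04). SLC23A1 entered the rule through the control libraries, so its call and lack of overlap are descriptions only. SLC23A2 (SVCT2), at a mean of 80.7 CPM, was not called (-0.31), though its cytokine libraries also lay below its control libraries without overlap. SLC46A1, the proton-coupled folate carrier, had 47.2 ± 4.47 CPM in control and 28.1 ± 3.94 CPM in cytokine libraries (SD, n = 4 each, log2 fold change -0.75, SE 0.13, limma adjusted p = 0.0018). The choline-carrier-like SLC44A3 (log2 fold change -0.92) was lower in both scalings and SLC44A2 (-0.64) only without TMM.

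Of the 6 genes for fatty acid and acetyl-CoA carriers 3 fell and none rose, also with TMM. A share of 6 genes is too coarse to set against that of all genes. The SLC27 proteins take up long-chain fatty acids and activate them to acyl-CoA. SLC27A3 stood at 27.9, 23.7, 19.1 and 19.5 CPM in control and 11.2, 10.9, 7.45 and 8.8 CPM in cytokine libraries, without overlap (log2 fold change -1.23, SE 0.18, limma adjusted p = 5.16e-04). SLC27A4 (FATP4), the most abundant of them, stood at 64.5, 57.7, 64.3 and 52.8 CPM in control and 32.1, 31.9, 32.8 and 30.8 CPM in cytokine libraries. Its cytokine libraries lay within a narrow band below all control libraries (log2 fold change -0.90, SE 0.11, limma adjusted p = 1.45e-04). SLC27A5, known as the bile acid-CoA ligase of liver, had 3.37 ± 0.967 CPM in control and 1.47 ± 0.4301 CPM in cytokine libraries (SD, n = 4 each, log2 fold change -1.14, SE 0.27, limma adjusted p = 0.00951). SLC27A1 and SLC27A2 had log2 fold changes of -0.32 and -0.25 and were not called.

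Of the 14 sugar carriers 6 fell and 1 rose, and with TMM 3 fell and 2 rose. Both counts of falls include SLC5A2 and SLC45A3, which entered the rule through the control libraries. The falls of these members are descriptions only, and the group's counts rest partly on them. SLC37A4, which carries glucose-6-phosphate into the endoplasmic reticulum, stood at 179.6, 175, 175 and 157 CPM in control and 108, 104, 83.8 and 98.8 CPM in cytokine libraries. All cytokine libraries were below all controls (log2 fold change -0.80, SE 0.12, limma adjusted p = 4.86e-04). Its relative SLC37A1, an exchanger of sugar phosphates for phosphate, had 64.8 ± 1.51 CPM in control and 103 ± 7.47 CPM in cytokine libraries (SD, n = 4 each) and rose (log2 fold change 0.67, SE 0.10, limma adjusted p = 6.71e-04). SLC5A2 (SGLT2), the sodium-glucose carrier of the kidney, had 1.603 ± 0.492 CPM in control and 0.657 ± 0.0308 CPM in cytokine libraries (SD, n = 4 each), near the minimum of the rule (log2 fold change -1.13, SE 0.25, limma adjusted p = 0.00632). SLC45A3, a proton-coupled sugar carrier, had 1.61 ± 0.223 CPM in control and 0.745 ± 0.204 CPM in cytokine libraries (SD, n = 4 each, log2 fold change -1.05, SE 0.26, limma adjusted p = 0.0105). The falls of SLC2A11 (-0.72), SLC45A1 (-0.59) and the inositol carrier SLC5A3 (-0.53) were not called with TMM. SLC2A11 was not called without control library A, control library B, control library D, cytokine library A, cytokine library B or cytokine library C (log2 fold changes -0.81 to -0.50, limma adjusted p = 0.0541 to 0.128), nor was SLC5A3 without control library C or cytokine library A (log2 fold changes -0.50 to -0.46, limma adjusted p = 0.0339 to 0.0545).

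Of the 3 phosphate carriers 1 rose, 1 fell and 1 was not called. SLC34A3 (NaPi-IIc, chromosome 9, 137230757 to 137236554, plus strand), the sodium-phosphate carrier of the kidney, showed the largest fall of all members. Its mean was below 1 CPM in cytokine libraries, so it entered the rule through the control libraries. Its level was 7.01, 6.84, 5.43 and 5.103 CPM in control and 1.19, 0.833, 0.745 and 0.804 CPM in cytokine libraries. The control level was 6.27 times the cytokine level on the fitted scale, with no overlap (log2 fold change -2.65, SE 0.22, limma adjusted p = 6.86e-06). SLC20A1 (PiT-1), a sodium-phosphate carrier of nearly all cells, stood at 14.3, 16.1, 18.8 and 22.6 CPM in control and 32.6, 30.1, 36.8 and 33.3 CPM in cytokine libraries and rose (log2 fold change 0.90, SE 0.15, limma adjusted p = 0.00135). SLC20A2 (PiT-2) had 27.03 ± 3.27 CPM in control and 19.3 ± 1.44 CPM in cytokine libraries (SD, n = 4 each). Its libraries did not overlap, but its log2 fold change of -0.48 stayed short of the threshold (limma adjusted p = 0.0154). It was called without control library B, control library D, cytokine library A or cytokine library C (log2 fold changes -0.53 to -0.51, limma adjusted p = 0.0219 to 0.029).

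Of the 5 sodium-calcium exchangers, which remove calcium from the cell, 3 fell and 1 rose (2 and 1 with TMM). A share of 5 genes is too coarse to set against that of all genes. The rise, SLC24A2, entered the rule through the cytokine libraries, so its call is a description only. SLC24A2 (NCKX2), which also moves potassium, stood at 0.449, 0.677, 0.199 and 0.117 CPM in control and 3.07, 2.05, 1.59 and 2.25 CPM in cytokine libraries. It was the lowest member per length in control cells, and its control libraries ran from 6 to 32 reads (log2 fold change 2.48, SE 0.40, limma adjusted p = 9.50e-04). SLC24A1 (NCKX1) had 11.98 ± 0.888 CPM in control and 6.11 ± 1.05 CPM in cytokine libraries (SD, n = 4 each, log2 fold change -0.97, SE 0.16, limma adjusted p = 0.00113). SLC8A3 (NCX3) stood at 19.4, 16.6, 14.8 and 13.5 CPM in control and 7.26, 7.52, 7.51 and 7.33 CPM in cytokine libraries, with nearly level cytokine libraries (log2 fold change -1.09, SE 0.15, limma adjusted p = 2.78e-04). SLC8A2 (NCX2) had 20.1 ± 2.64 CPM in control and 13.7 ± 0.889 CPM in cytokine libraries (SD, n = 4 each). Its fall (log2 fold change -0.55, SE 0.14, limma adjusted p = 0.011) was not called with TMM (-0.39), nor without control library A (log2 fold change -0.47, limma adjusted p = 0.0295). SLC8A1 (NCX1) was not called (-0.24).

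Among the 26 carriers of protons, bicarbonate and chloride, 1 rose and 4 fell, and 21 were not called (1 and 2 with TMM). The falls were near the share of all genes called lower (17.5%). The rise was SLC12A7 (KCC4, chromosome 5, 1050376 to 1112035, minus strand), which lets chloride leave the cell together with potassium. It stood at 108, 104, 95.7 and 84.1 CPM in control and 295, 297, 313 and 258 CPM in cytokine libraries. The cytokine libraries were 2.97-fold higher (log2 fold change 1.57, SE 0.12, limma adjusted p = 4.43e-06). The potassium-chloride carriers SLC12A4 and SLC12A5 had log2 fold changes of 0.12 and -0.0004, and SLC12A2 (NKCC1), which brings chloride in, -0.20; none was called. SLC26A9, a chloride carrier and channel of epithelia, stood at 2.65, 2.31, 1.14 and 2.23 CPM in control and 0.66, 0.256, 0.342 and 0.422 CPM in cytokine libraries. Control C was lower than the other control libraries but above all cytokine libraries (log2 fold change -2.06, SE 0.33, limma adjusted p = 9.38e-04). As SLC26A9 entered the rule through the control libraries, its fall and lack of overlap are descriptions only. SLC26A1, an exchanger of sulfate, had 3.15 ± 0.499 CPM in control and 1.26 ± 0.111 CPM in cytokine libraries (SD, n = 4 each, log2 fold change -1.24, SE 0.20, limma adjusted p = 9.49e-04). SLC4A3 (AE3, -0.65) and SLC4A11 (-0.59) were called lower without TMM and not with it, though edgeR with TMM called SLC4A3 lower (-0.51). SLC4A2 (AE2), which had the highest control level of the group per length, was not called (0.17). None of the 6 sodium-proton exchangers of the SLC9 family was called in either scaling.

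Of the 24 carriers of metals and heme 1 rose and 5 fell, and 18 were not called. With TMM 3 rose and 2 fell. The falls without TMM were near the share of all genes called lower (17.5%). SLC30A7 (ZnT7), which moves zinc into the Golgi, stood at 8.38, 8.04, 10.4 and 12.6 CPM in control and 16.8, 17.2, 18.3 and 19.9 CPM in cytokine libraries. All cytokine libraries lay above all controls (log2 fold change 0.89, SE 0.16, limma adjusted p = 0.0022). The zinc importers of highest mean CPM were not called. SLC39A7 (ZIP7) of the endoplasmic reticulum had 102 ± 29.9 CPM in control and 124 ± 30.4 CPM in cytokine libraries (SD, n = 4 each). SLC39A14 (ZIP14) had 101 ± 13.9 CPM in control and 100.3 ± 9.54 CPM in cytokine libraries (SD, n = 4 each). SLC39A10 (ZIP10) had 14.03 ± 5.03 CPM in control and 7.09 ± 2.24 CPM in cytokine libraries (SD, n = 4 each, log2 fold change -0.96, SE 0.29, limma adjusted p = 0.0275). The call was lost without control library C, control library D, cytokine library A or cytokine library B (log2 fold changes -0.91 to -0.76, limma adjusted p = 0.0667 to 0.0749). SLC48A1 (HRG1), a heme carrier of lysosomes, had 19.4 ± 3.61 CPM in control and 10.8 ± 1.86 CPM in cytokine libraries (SD, n = 4 each, log2 fold change -0.84, SE 0.17, limma adjusted p = 0.00441). The falls of the vesicular zinc carrier SLC30A3 (-0.64), SLC41A3 (-0.61) and SLC39A3 (-0.58) were not called by limma with TMM, though edgeR with TMM called SLC30A3 lower (-0.50). SLC39A3 was not called without control library C (log2 fold change -0.50, limma adjusted p = 0.0114). In the TMM scaling the zinc exporter SLC30A1 (0.56) and the iron carrier SLC11A2 (0.63) were called higher.

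Of the 5 nucleotide sugar carriers SLC35A2, which takes UDP-galactose into the Golgi, stood at 20.3, 17.8, 22.7 and 18.3 CPM in control and 27.3, 27.7, 34.9 and 25.6 CPM in cytokine libraries. It rose (log2 fold change 0.54, SE 0.14, limma adjusted p = 0.0135), but the call was lost without control library B or cytokine library C (log2 fold changes 0.44 to 0.49, limma adjusted p = 0.0313 to 0.0442). SLC35A4, the most abundant of them, was not called (-0.15). The 3 proton-coupled peptide carriers of the SLC15 family were not called, with log2 fold changes of 0.05 to 0.13; SLC15A4, a histidine and peptide carrier of endosomes, had 14.1 ± 1.63 CPM in control and 15.5 ± 1.88 CPM in cytokine libraries (SD, n = 4 each). SLC66A2 (-0.16) and SLC66A3 (-0.02), the remainder that no substrate group took, were not called either.

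Per transcript length the leading members in control cells were SLC22A17, SLC7A8, SLC29A4, SLC32A1 and SLC29A1, and 4 of these 5 were called lower after cytokine exposure (SLC32A1 not with TMM). SLC7A8 had 488 ± 44.1 TPM in control and 308 ± 22.6 TPM in cytokine libraries, and SLC29A4 had 344 ± 30.4 TPM in control and 205 ± 20.4 TPM in cytokine libraries (SD, n = 4 each). SLC12A7 stood at 62.1 ± 4.09 TPM in control and 201 ± 23.04 TPM in cytokine libraries, SLC6A6 at 63.1 ± 6.31 TPM in control and 179.8 ± 16.9 TPM in cytokine libraries, and SLC29A1 at 166 ± 10.6 TPM in control and 72.4 ± 5.104 TPM in cytokine libraries. By their means SLC12A7 and SLC6A6 were below SLC29A1 in control and above it in cytokine cells; these orders were not tested.

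**Figure D3:**
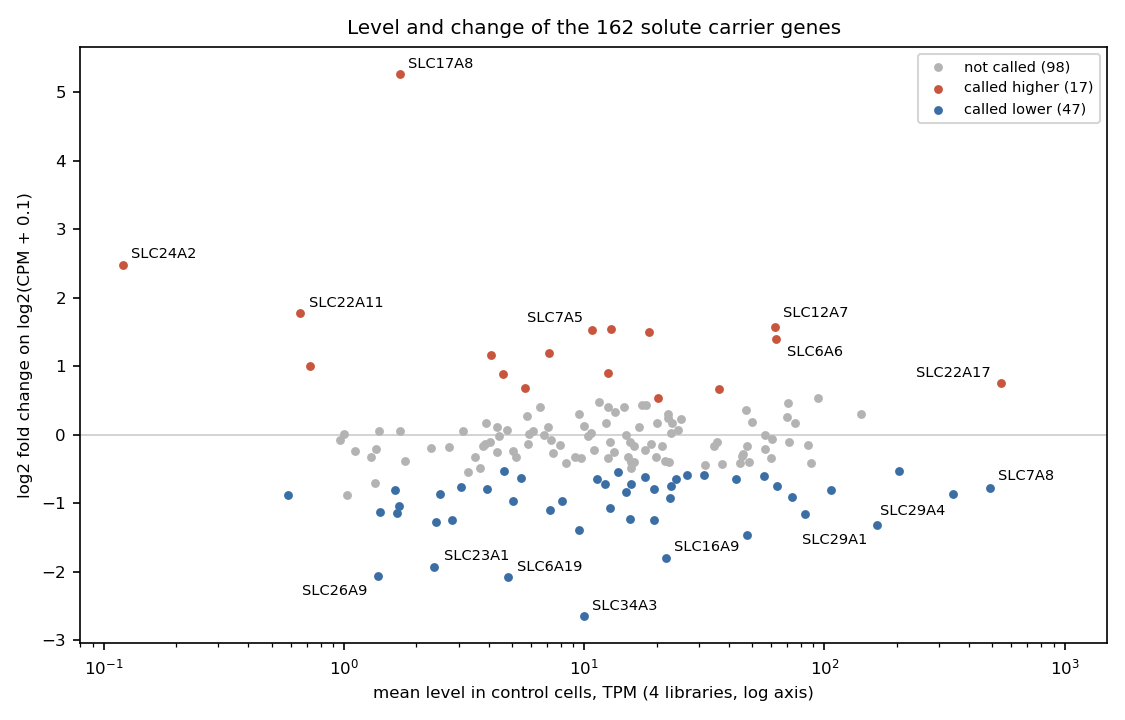
Mean level of each of the 162 solute carrier genes in the 4 control libraries, in TPM on a log axis, against its log2 fold change on log2(CPM + 0.1). Red points were called higher, blue lower and grey not called; SLC22A17 is at the far right at 545 TPM and rose, and SLC7A8, SLC29A4 and SLC29A1 beside it fell.

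Ratios of related carriers within a library do not depend on how the library is scaled, and 7 such pairs, chosen after the values were seen, are given as a description. The ratio of SLC17A8 to SLC17A6 in TPM was 0.0532 to 0.08696 in control and 1.604 to 2.82 in cytokine libraries. By TPM the SLC17A8 transcript was thus the minor of the pair in control and the major in cytokine libraries. Protein was not measured in these data. The ratio of SLC7A5 to SLC7A8 was 0.0141 to 0.0293 in control and 0.0741 to 0.142 in cytokine libraries, and that of SLC38A2 to SLC38A3 was 0.402 to 1.08 in control and 2.84 to 7.48 in cytokine libraries. SLC7A8 stayed above SLC7A5 in every library. The ratio of SLC19A2 to SLC19A1 was 3.61 to 5.36 in control and 17.2 to 19.6 in cytokine libraries, and that of SLC20A1 to SLC20A2 0.613 to 1.09 in control and 1.88 to 2.18 in cytokine libraries. For SLC16A7 to SLC16A1 it was 0.172 to 0.225 in control and 0.3904 to 0.719 in cytokine libraries, and for SLC30A7 to SLC30A3 0.304 to 0.584 in control and 1.08 to 1.24 in cytokine libraries. The ratios SLC17A8 to SLC17A6 and SLC30A7 to SLC30A3 were below 1 in all control and above 1 in all cytokine libraries, and those of SLC38A2 to SLC38A3 and SLC20A1 to SLC20A2 were below 1 in 3 of 4 control and above 1 in all cytokine libraries. In none of the 7 pairs did the conditions overlap, but the choice of pairs by their values favoured this, so it is no test.

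**Figure D4:**
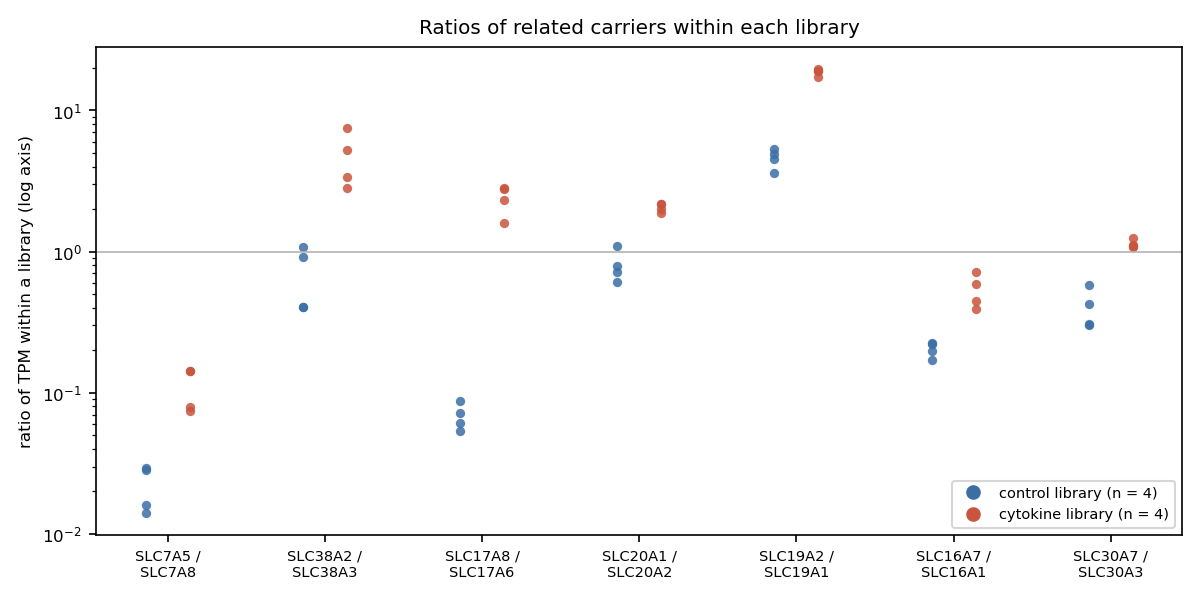
Ratio of the TPM values of 2 related carriers within each library, on a log axis, for 7 pairs chosen after the values were seen. Blue points are control and red points cytokine libraries (n = 4 each), and the grey line marks equal levels. The SLC17A8 to SLC17A6 and SLC30A7 to SLC30A3 ratios are below it in all control and above it in all cytokine libraries. In all 7 pairs the conditions are apart, which the choice of pairs favoured.

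A list of 52 partners and regulators of the carriers held 42 listed genes, of which 10 rose and 4 fell (11 and 2 with TMM). Of all genes 9.52% were called higher and 17.5% lower (13.1% and 11.5% with TMM), against which these counts and those of the lists within it are to be read. Of the 4 chaperones and subunits, EMB, the escort of monocarboxylate carriers, fell (log2 fold change -0.70, SE 0.15, limma adjusted p = 0.00504), and BSG was not called (0.15). Of 6 genes of the sodium-potassium pump, which maintains the gradient for sodium-coupled uptake, the subunit ATP1B1 had 87.3 ± 31.3 CPM in control and 248 ± 80.8 CPM in cytokine libraries (SD, n = 4 each) and rose (log2 fold change 1.52, SE 0.27, limma adjusted p = 0.00178). The regulator FXYD2 fell (log2 fold change -1.66, SE 0.27, limma adjusted p = 0.00102). Of 9 kinases and scaffolds of ion carriers only SGK1 was called, from 0.577, 0.826, 0.398 and 0.626 to 0.979, 0.833, 2.13 and 2.27 CPM in libraries A to D (log2 fold change 1.14, SE 0.36, limma adjusted p = 0.0338). This call was lost without control library A, control library C, control library D, cytokine library C or cytokine library D (log2 fold changes 0.93 to 1.16, limma adjusted p = 0.0573 to 0.0967). WNK1, WNK2, WNK3, WNK4, STK39 and OXSR1, which regulate the SLC12 carriers, were not called.

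Of 10 genes of the amino acid response 3 rose and 2 fell (4 and none with TMM). ATF4 had 214 ± 34.9 CPM in control and 356 ± 62.2 CPM in cytokine libraries (SD, n = 4 each, log2 fold change 0.74, SE 0.16, limma adjusted p = 0.00511). ASNS, which makes asparagine, had a log2 fold change of 1.33, and CHAC1, which degrades glutathione, 1.47. TRIB3 (0.12), PHGDH (0.02) and DDIT4 (-0.44) were not called, and SESN2 (-0.50) and VLDLR (-0.61) fell only without TMM. PSAT1, an enzyme of serine synthesis, was not called either (log2 fold change 0.62, SE 0.24, limma adjusted p = 0.0744) but was called higher with TMM (0.78), by edgeR and DESeq2, with the replicate block and without control library C (0.79). SESN2 was not called without control library A, control library B or cytokine library D (log2 fold changes -0.45 to -0.41, limma adjusted p = 0.0534 to 0.0636). Of 7 genes of amino acid and redox sensing, RRAGC (0.96) and FLCN (1.19), which act on mTORC1 at the lysosome, rose. Of 6 genes of metal sensing and storage 3 rose: the metallothioneins MT2A, from 0.576 ± 0.19 to 47.8 ± 1.79 CPM (SD, n = 4 each; log2 fold change 6.2, SE 0.23, limma adjusted p = 1.49e-08), and MT1X (1.68), and their transcription factor MTF1 (0.52), which was not called without cytokine library A (log2 fold change 0.47, limma adjusted p = 0.0296).

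The rule's minimum fell among genes of few reads. Just inside it, by mean over the 8 libraries, were SLC1A1 at 1.07 CPM, SLC7A9 at 1.13 CPM and SLC5A2 at 1.13 CPM, and just outside it SLC22A4 at 0.785 CPM, SLC17A9 at 0.735 CPM and SLC22A16 at 0.725 CPM. SLC1A1 (EAAT3), the glutamate and cysteine carrier, was not called (log2 fold change -0.71, SE 0.35, limma adjusted p = 0.155) but was called with the shared letter as a replicate block.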

How the data were processed

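RNA of untreated and cytokine-exposed EndoC-βH5 cells was sequenced on a DNBSEQ platform. The authors aligned the reads to GRCh38 with TopHat 2.1.1, counted them on Ensembl 107 genes with HTSeq 0.9.1, removed genes that did not exceed 0.5 CPM in 4 samples, and deposited the remaining values as CPM; that filter decides which carriers could be members. Another 4 columns of values in the table were not used. In each of the 8 libraries 100% of values were whole multiples of 1 read (within 0.01 read), so reads were recovered for the count tests; 20.1 to 26.6% of each total lay outside the listed genes.

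Values were compared as log2(CPM + 0.1) by limma 3.58.1 (R 4.3.3), its prior variance following intensity, with p-values adjusted by Benjamini-Hochberg across 16525 genes. Calls needed an FDR under 0.05 and a log2 fold change beyond 0.5 in size. Fold changes on this scale understate changes of genes with few reads. TMM and median-of-ratios scaling, other pseudocounts, filters and thresholds, edgeR 4.0.16, DESeq2 1.42.0 and leaving out each library were alternatives; the code was tested on simulated data. TPM used exon lengths of GENCODE 29. Members, substrate groups and partner lists were chosen with earlier results of these data known; the element of ATF4, the ratio pairs and the interaction of treatment with the name endings were added after seeing the values.

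The shared part of the column names was checked as a pairing: deviations from the group means correlated by 0.57, 0.59, 0.80 and 0.74 within pairs A to D, but control B with cytokine A by 0.59 and control A with cytokine B by 0.57, which leaves A and B interchangeable. With this replicate block 18 members were called higher and 50 lower. A few genes that were tested and counted are not reported here by name. Tables and figures were made with Python 3.11.15.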

Additional observations from a re-analysis of the deposited data

Results flagged for a closer look

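In 2 of the 96 groups of 4 libraries examined (48 named members in 2 conditions), 1 library stood apart by Dixon's test at its 95% critical value; chance gives about 1 in 20. SLC22A11 was at 1.39 CPM in control library A and at 0.723 to 0.804 CPM in the other 3 control libraries. SLC39A14, the zinc importer ZIP14, was at 122.1 CPM in control library C and at 92.2 to 95.7 CPM in the other 3.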

How the results depend on the processing

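No result changed direction to the opposite call. With TMM 31 members were lower, where 47 were called, and all genes called lower numbered 1908, against 2896; median-of-ratios scaling gave 1879 and edgeR with TMM 1892. The treat test, which sets the threshold inside the test, left 8 members higher and 13 lower (732 and 646 of all genes). The replicate block of the column names with TMM gave 26 members and 2638 genes higher; without TMM it gave 18 and 50 members. Beside the gains it brought in SLC3A2, SLC1A1, SLC9A2 and SLC26A2, the block changed no other member's call. edgeR on the recovered reads called 24 members higher and 33 lower (2162 and 1892 genes), and DESeq2 24 and 35. Leaving out 1 library gave 15 to 20 members higher and 40 to 46 lower, and 1375 to 1700 and 2397 to 2922 of all genes. Of the 37 called members named by the rule, 21 kept their call under all 21 alternatives. Depth limits members near 1 CPM, such as SLC24A2, which had 6 to 32 reads in control libraries.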
